A study of Mus musculus with 13 samples.

Results

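The forkhead (Fox) genes of mouse 4T1 mammary tumor cells were examined for histone marks and nuclear pore protein binding. Members were all genes whose symbol began with Fox, a letter from a to s and a digit in any of 6 lists of ChIP-seq peaks at genes. The rule used the name alone and no measured value. It found 31 genes of 18562 in the lists. RefSeq holds 44 protein-coding mouse symbols of this form, and the 13 with no entry in the lists (Foxa2, Foxb2, Foxd3, Foxe1, Foxe3, Foxf2, Foxi1, Foxl2, Foxn1, Foxn4, Foxo6, Foxr1 and Foxs1) were not analysed here.

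The study asked how the nuclear pore protein NUP210 bears on chromatin in metastatic cells. All cells were 4T1, a line from a spontaneous mammary tumor of a BALB/cJ mouse, cultured for 48 h. The sg-Ctrl cells carried a non-targeting guide RNA, and the KO cells had Nup210 knocked out with CRISPR/Cas9 and were 1 single-cell-derived clone, N13, so a property of that clone and an effect of the knockout cannot be told apart. H3K4me3 and H3K27me3 were measured in sg-Ctrl and KO cells, and NUP210 and the pore proteins recognized by the MAb414 antibody (NPC) in the sg-Ctrl cells alone, each by 1 library. No difference was therefore tested, no p-value between conditions is given, and all intervals cover counting error only.

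Forkhead proteins are transcription factors that bind DNA through a shared winged-helix domain. The FOXA proteins can bind compacted chromatin and act with estrogen receptor in mammary epithelium, FOXO proteins are switched off by insulin and AKT signaling, and FOXM1 drives genes of mitosis. Many others, such as FOXC, FOXD and FOXF, act in the embryo and can be held silent elsewhere by Polycomb, the complex that writes H3K27me3. H3K4me3 marks transcription start sites (TSS) of genes that are active or ready for activity.

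Reads in listed peaks were 26236314 for sg-Ctrl and 24873356 for KO in H3K4me3, and 7719297 and 26811061 in H3K27me3. The library size relative to IgG, recovered from the deposited fold and counts, was 1.06 and 1.35 for H3K4me3 and 0.847 and 2.68 for H3K27me3. Scaled reads, and all levels per kb and log2 ratios, were divided by this ratio, and counts called reads are as deposited. The deeper H3K27me3 KO library could reveal weaker peaks, and its part in the results was not tested. The same rabbit IgG reads stood behind both conditions, as 575 of 575 H3K4me3 peaks and 832 of 832 H3K27me3 peaks at the same position had equal IgG counts. The targeted gene itself had 885 TSS reads in sg-Ctrl and 913 in KO, which does not check an edit within the gene. Of the cell type markers read as H3K4me3 peaks in sg-Ctrl, 8 of 8 epithelial genes, 1 of 3 basal (Krt14), 1 of 4 immune (Cd68), 0 of 3 endothelial and 2 of 4 fibroblast genes had one.

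The forkhead genes divided into a group with H3K4me3 at the TSS and a group with H3K27me3 on the gene body, and no member was listed with both marks in either condition. In sg-Ctrl cells, H3K4me3 was listed within 4 kb of the TSS of 21 of the 31 members, against a background of 67.1% of all genes. H3K27me3 was listed on 7 members, against 26.8% of all genes. Genes with both marks made up 3.9% of all genes in sg-Ctrl and 3.24% in KO. Among genes with H3K4me3 in sg-Ctrl, 5.81% also had H3K27me3, and with 0 of 21 the members did not stand far from that low share. Among genes with H3K27me3 in sg-Ctrl, 14.5% also had H3K4me3, against 0 of 7 members. In KO, 22 members had H3K4me3, against 67% of all genes, and 5 had H3K27me3, against 27.6%. Among genes with H3K4me3 in KO, 4.83% also had H3K27me3, against 0 of 22 members. No member had H3K4me3 in sg-Ctrl alone, against 1.38% of all genes.

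The members were also grouped by the breadth of expression known from textbooks. By it, 12 members are widely expressed and 19 are developmental or restricted to some tissues. Of the widely expressed members, 11 of 12 carried H3K4me3 in sg-Ctrl, against 67.1% of all genes. The other, Foxn3, a repressor linked to cell cycle checkpoints, carried H3K27me3, and its start in the list lies inside the longer RefSeq gene. Of the 19 others, 10 carried H3K4me3 (52.6%, against 67.1% of all genes), 6 carried H3K27me3 (31.6%, near the 26.8% of all genes) and 3 carried neither. Those with H3K4me3 were Foxa1, Foxa3, Foxc1, Foxc2, Foxd2, Foxf1, Foxh1, Foxj1, Foxl1 and Foxq1. At Foxa3, Foxh1 and Foxl1 the peak did not cover the start used in the list. Of the 21 members with H3K4me3 in both lists, 18 had a covered start in sg-Ctrl (85.7%, against 91.1% of all such genes). Those with H3K27me3 were Foxb1, Foxd1, Foxi2, Foxi3, Foxp2 and Foxr2. Among those with neither mark in sg-Ctrl, Foxd4 entered through the NPC list and Foxp3 through the H3K4me3 list of KO cells.

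**Figure D1:**
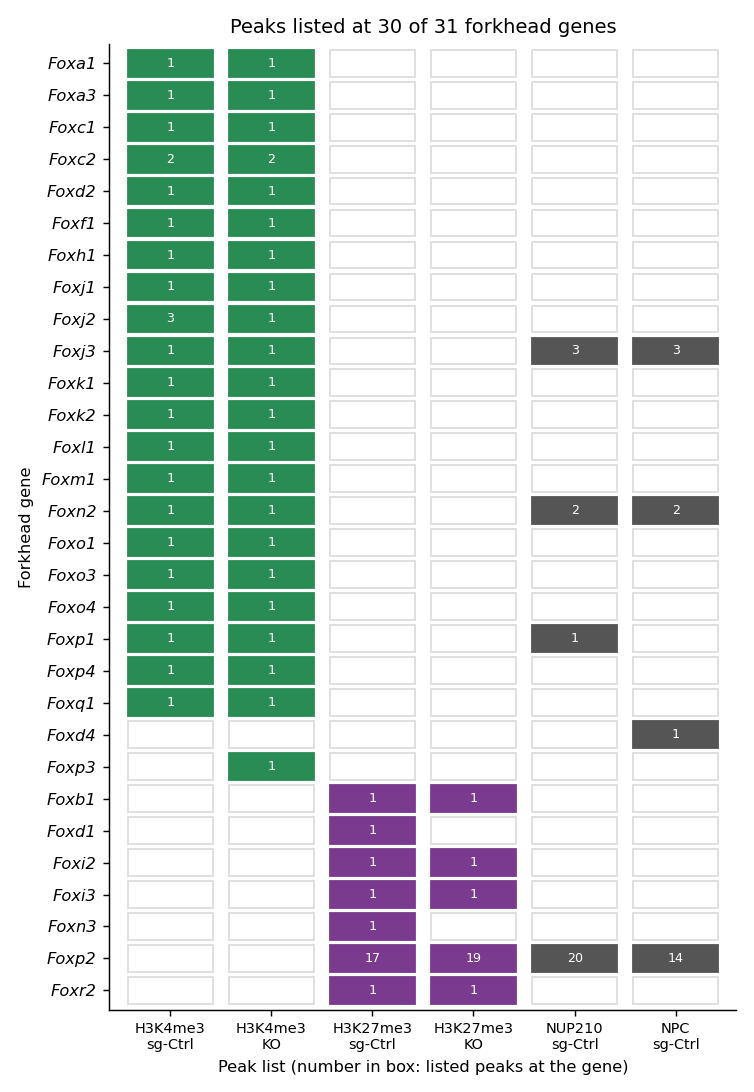
Number of listed peaks at 30 of the 31 forkhead genes (rows) in each of the 6 peak lists (columns), with empty boxes where no peak was listed. The 21 genes with H3K4me3 in sg-Ctrl stand at the top, Foxd4 and Foxp3, with neither mark there, in the middle and the 7 with H3K27me3 at the bottom, and no row has both marks.

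Median CpG content, a feature the rule did not use, differed between the promoters of the groups with H3K4me3 and with H3K27me3. RefSeq promoters on GRCm38.p6, from 250 bases before to 50 after the start, were given for 18 of the 31 members, and 17 of these lay within 50 bp of the gene start in the peak lists. The median ratio of observed to expected CpG was 0.94 for the 11 members with H3K4me3 and 0.29 for the 5 with H3K27me3. The same medians over all genes with H3K4me3 alone and with H3K27me3 alone were 0.77 and 0.27, and over all 32851 promoters 0.38. The 5 with H3K27me3 spread widely. The windows of Foxi3 (0.87), Foxd1 (0.62) and Foxr2 (0.15) lay inside an H3K27me3 peak in sg-Ctrl. Those of Foxn3 (0.29) and Foxi2 (0.20) did not, so the low median does not describe promoters under the mark. The windows of Foxn3, Foxr2, Foxa1 and Foxp1 stood at starts inside a longer RefSeq gene. The 250 bases before the start are shown 5′ to 3′, with CpG in capitals, for 3 members with H3K4me3 and 3 with H3K27me3, because each lay wholly inside a peak of its mark in sg-Ctrl. Foxa1 is at chr12:57546112-57546361, minus strand, Foxc1 at chr13:31806396-31806645, plus strand, and Foxj2 at chr6:122819934-122820183, plus strand. Foxd1 is at chr13:98353995-98354244, plus strand, Foxi3 at chr6:70956356-70956605, plus strand, and Foxr2 at chrX:153118538-153118787, plus strand.
Foxa1: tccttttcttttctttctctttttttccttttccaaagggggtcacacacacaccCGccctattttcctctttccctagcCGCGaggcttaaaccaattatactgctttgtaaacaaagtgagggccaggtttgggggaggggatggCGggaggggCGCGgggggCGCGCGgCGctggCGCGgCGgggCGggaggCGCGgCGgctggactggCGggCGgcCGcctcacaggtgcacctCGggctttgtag
Foxc1: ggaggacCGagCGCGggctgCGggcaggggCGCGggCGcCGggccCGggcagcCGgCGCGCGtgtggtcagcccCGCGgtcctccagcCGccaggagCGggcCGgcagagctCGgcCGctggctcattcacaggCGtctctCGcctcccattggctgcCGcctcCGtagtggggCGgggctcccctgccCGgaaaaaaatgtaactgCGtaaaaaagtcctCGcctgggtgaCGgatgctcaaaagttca
Foxj2: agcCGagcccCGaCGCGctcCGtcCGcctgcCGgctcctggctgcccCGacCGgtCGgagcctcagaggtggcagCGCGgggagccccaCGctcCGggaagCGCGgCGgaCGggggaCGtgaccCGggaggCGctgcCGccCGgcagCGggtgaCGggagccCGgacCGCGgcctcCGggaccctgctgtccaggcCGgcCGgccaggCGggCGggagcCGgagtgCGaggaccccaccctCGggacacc
Foxd1: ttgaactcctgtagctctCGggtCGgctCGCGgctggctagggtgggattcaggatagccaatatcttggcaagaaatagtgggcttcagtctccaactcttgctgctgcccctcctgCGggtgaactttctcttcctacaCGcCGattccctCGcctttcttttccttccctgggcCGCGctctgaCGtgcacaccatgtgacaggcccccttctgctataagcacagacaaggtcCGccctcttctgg
Foxi3: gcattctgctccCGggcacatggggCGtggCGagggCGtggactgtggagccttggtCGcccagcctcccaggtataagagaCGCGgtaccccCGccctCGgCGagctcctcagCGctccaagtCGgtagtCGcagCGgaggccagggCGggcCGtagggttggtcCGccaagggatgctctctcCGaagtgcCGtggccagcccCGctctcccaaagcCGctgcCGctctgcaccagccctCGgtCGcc
Foxr2: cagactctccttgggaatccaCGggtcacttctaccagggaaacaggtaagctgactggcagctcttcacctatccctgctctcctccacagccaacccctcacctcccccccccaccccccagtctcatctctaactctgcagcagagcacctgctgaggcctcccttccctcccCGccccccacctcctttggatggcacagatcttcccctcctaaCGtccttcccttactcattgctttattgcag

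The stretch shown for Foxj2 held 36 CpG, that of Foxc1 29, that of Foxi3 24, that of Foxa1 21, that of Foxd1 12 and that of Foxr2 3. The forkhead core motif TGTTTAC, or GTAAACA on the other strand, was found in 1 of the 18 windows, that of Foxa1, with its first base at position -141 from the start. It was found in 3.65% of all promoter windows. Such a match is only a description of the letters.

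At the TSS, the levels in sg-Ctrl cells were highest for 5 members. Levels are scaled H3K4me3 reads per kb of the TSS peak with the most reads per kb. Foxm1, the mitotic activator, had 897 in sg-Ctrl and 529 in KO. Foxn2, a little-studied widely expressed factor, had 867 and 601. Foxp1, a repressor broadly present in epithelia and lymphocytes, had 862 and 526. Each of these levels was lower in KO, as were those of 88.7% of all genes with a peak in both lists. Foxc1, a factor of mesenchyme and basal-like mammary tumors, had 653 and 367, and Foxj2 had 600 and 233. The lowest level in sg-Ctrl was that of Foxq1, an epithelial factor, with 183 scaled reads per kb, and 170 in KO. The median over the 21 members was 390.8 in sg-Ctrl, against 536.9 over all genes with a TSS peak. It was 491 for the widely expressed members and 348 for the others. The lower level held per kb alone, as the median fold over IgG in sg-Ctrl was 54.3 for the members and 53.0 for all genes.

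**Figure D2:**
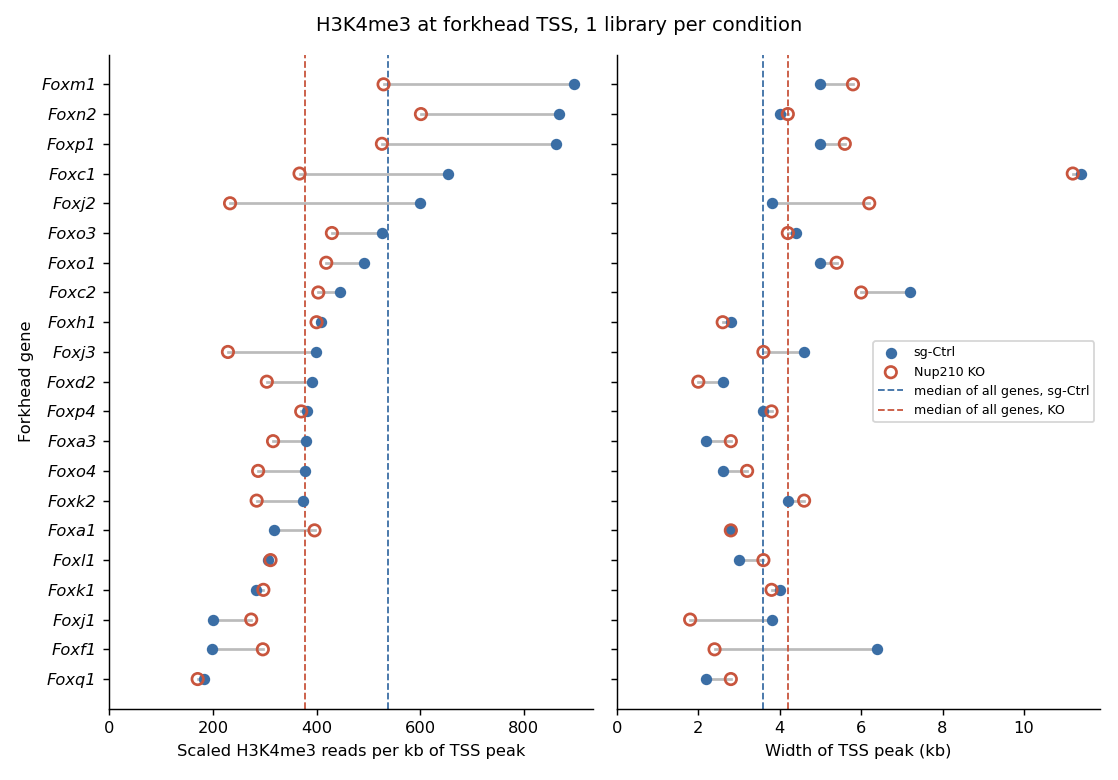
Left, scaled H3K4me3 reads per kb of the TSS peak, and right, its width in kb, for the 21 forkhead genes with a peak in both lists (filled points, sg-Ctrl; open points, Nup210 KO; dashed lines, medians over all genes; 1 library each). The 5 genes with the highest sg-Ctrl level, from Foxm1 at 897 to Foxj2 at 600, all lie lower in KO, as do 88.7% of all genes. Foxc1 has the widest peak at 11.4 kb.

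Most H3K4me3 levels were lower in the KO library, at forkhead genes and across the genome. The median log2 ratio of reads per kb, KO over sg-Ctrl, was -0.50 over the 12197 genes with a peak in both lists and -0.26 over the 21 members. A ratio below 0 was seen for 16 members and for 88.7% of all genes. Scaling by the reads at genes with peaks in both lists lifted every ratio alike, moved the median over all genes to -0.10 and that of the members to 0.14, and left 6 members below 0, so ratios are also given relative to the median of all genes. Relative to it, 15 members lay above and 6 below, with a median of 0.24. That offset was not seen in total reads of the peak, where the members' median was -0.36 against -0.32 over all genes, with 10 members above and 11 below.

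A KO level at least 2-fold lower per kb was found for 1 of the 21 members, Foxj2, against 9.66% of all genes. A level at least 2-fold higher was found for 0 of 21, against 0.525%. With the other scaling, these counts were 0 lower and 0 higher for the members, while over all genes they went from 1178 lower and 64 higher to 167 lower and 199 higher. Relative to all genes, 0 members were 2-fold lower, against 0.926%. By the authors' fold over IgG, 4 members were at least 2-fold lower (Foxj2, Foxj3, Foxm1 and Foxp1), against 17.5% of all genes, and 2 were higher (Foxd2 and Foxk1), against 2.48%. The members' counts were near the background on the main measure. The medians of single chromosomes ranged from -0.72 to -0.36 per kb, and their part in a member's ratio was not tested.

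Foxj2, an activator expressed in many tissues, had a TSS peak of 3.8 kb with 2418 reads in sg-Ctrl cells and of 6.2 kb with 1946 reads in KO cells. Its log2 ratio was -1.36 per kb (95% counting interval -1.45 to -1.28), which was -0.87 relative to all genes. In total reads of the peak the ratio was -0.66. In sg-Ctrl, 2 further peaks with 152 and 860 reads flanked the one at the start, and with all peaks summed the ratio was -1.16. The KO list had a single peak there, which reached from -4.38 to 1.82 kb of the start. All measures were lower in KO, and their size depended on how far the peak was drawn.

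Foxa1, the pioneer factor of luminal mammary cells, lay above 0 on both measures. Its TSS peak was 2.8 kb wide in both lists with 40 IgG reads in each, and the reads went from 942 in sg-Ctrl to 1494 in KO. The start used in the list lies inside the longer RefSeq gene, and the peak did not reach the outer RefSeq start in either list. The scaled level went from 317 to 396 reads per kb, a log2 ratio of 0.32 (0.20 to 0.44) and 0.82 relative to all genes. This ratio was higher than that of 96.2% of all genes. Because peak width and IgG reads were equal, its ratio per kb, in total reads and by the authors' fold over IgG was the same 0.32. These measures are therefore not separate checks. With scaling by shared reads, which lifts every ratio alike, it was 0.72. Foxa3, its liver and gut relative, shared a peak with Sympk that did not cover the Foxa3 start, and its log2 ratio was -0.26 per kb and 0.09 in total reads.

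Foxc1 and Foxq1 are neighbors on chromosome 13, 246 kb apart, and had unlike ratios. The Foxc1 peak was 11.4 kb wide in sg-Ctrl, wider than that of 98.7% of all genes, and 11.2 kb in KO. Its reads went from 7903 in sg-Ctrl to 5540 in KO, with 118 IgG reads in each. Its log2 ratio was -0.83 per kb (-0.88 to -0.78), -0.86 in total reads and -0.33 relative to all genes. Foxq1 held 427 and 643 reads in peaks of 2.2 and 2.8 kb, so its log2 ratio was -0.10 per kb (-0.28 to 0.08) but 0.25 in total reads. The median over all genes of chromosome 13 was -0.49 per kb, between these values.

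**Figure D3:**
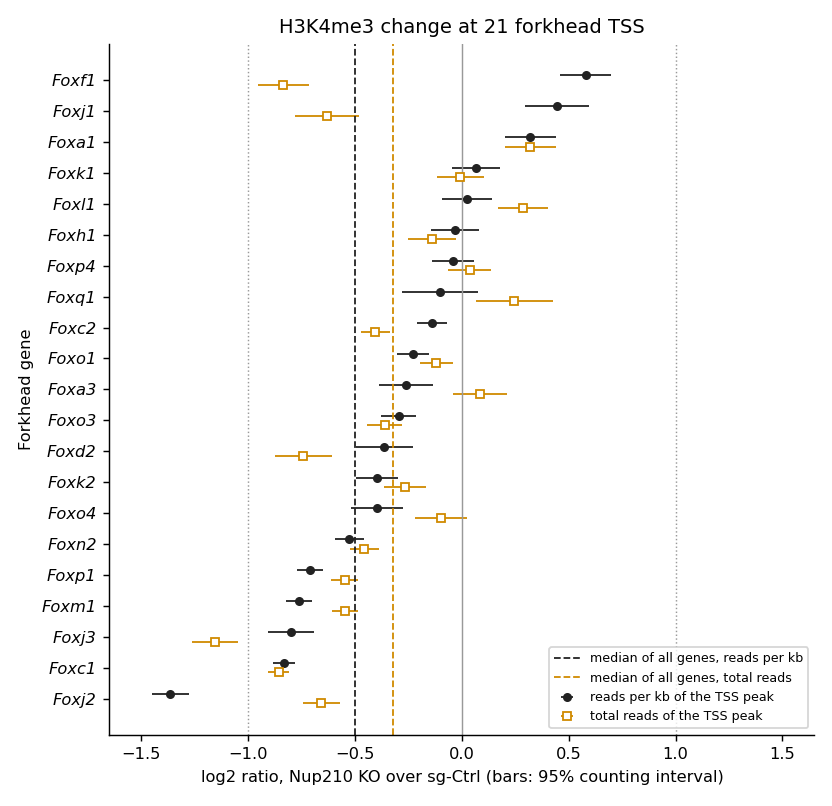
log2 ratio of H3K4me3, Nup210 KO over sg-Ctrl, at 21 forkhead TSS, per kb of the peak (filled circles) and in total reads (open squares), with 95% counting intervals as bars, medians over all genes as dashed lines and the 2-fold limits dotted. Foxj2 alone lies past the lower limit per kb and Foxj3 alone in total reads, and Foxf1 and Foxj1 lie above 0 per kb and below 0 in total reads. With scaling by shared reads all per-kb points shift up alike, and 6 of the 21 remain below 0.

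Foxf1, Foxc2 and Foxl1 form a cluster on chromosome 8, with gaps of 28 kb and 8.79 kb between them, and act in mesenchyme and vessels of the embryo. Each had a peak in both lists. The Foxf1 peak, which also covers the start of the long noncoding RNA gene Fendrr, went from 6.4 kb with 1346 reads in sg-Ctrl to 2.4 kb with 958 reads in KO. Its log2 ratio was 0.58 per kb (0.46 to 0.70) but -0.84 in total reads, so its direction turned with the measure. Relative to all genes it was 1.08 per kb, the only member past 2-fold on that scale, against 2.2% of all genes. In KO the peak ended 0.015 kb past the start of Foxf1, while in sg-Ctrl it reached 2.42 kb into the gene.

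The main Foxc2 peak narrowed from 7.2 to 6 kb with 3397 and 3260 reads, and its log2 ratio was -0.14 per kb (-0.21 to -0.07) and -0.40 in total reads. A small Foxc2 peak upstream held 128 and 148 reads. The Foxl1 peak lay 884 bp before its start in sg-Ctrl and 684 bp before it in KO, and did not cover it. It widened from 3 to 3.6 kb with 975 and 1509 reads, and its log2 ratio was 0.02 per kb (-0.10 to 0.14) and 0.28 in total reads. The 3 neighbors thus had total read ratios on both sides of 0. The median of chromosome 8 was -0.36 per kb.

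**Figure D4:**
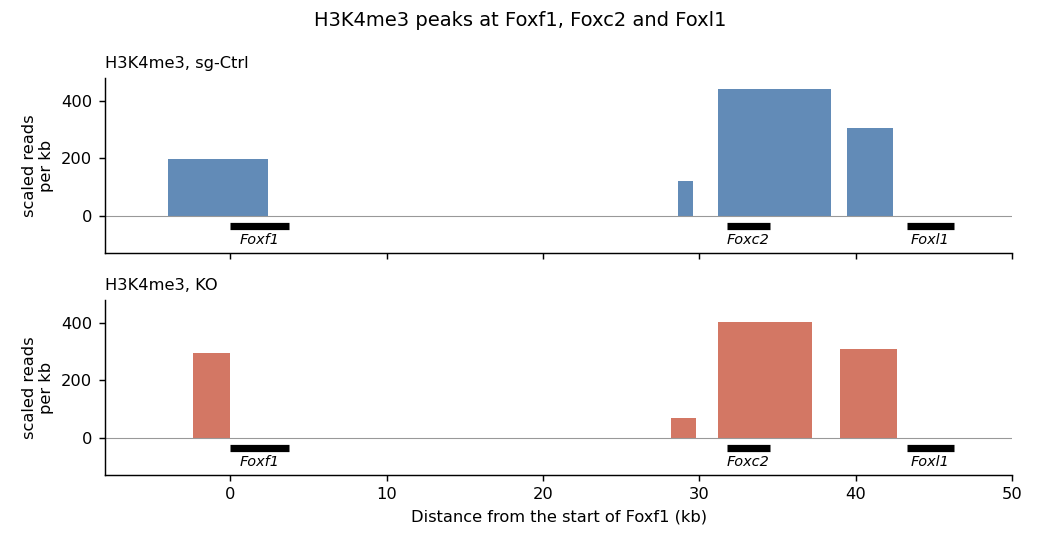
H3K4me3 peaks at Foxf1, Foxc2 and Foxl1 by distance from the start of Foxf1 (kb), with scaled reads per kb as height, in sg-Ctrl (top) and KO (bottom), and genes as black bars. The Foxf1 peak is shorter and higher in KO (6.4 to 2.4 kb, 198 to 296 scaled reads per kb), and the Foxl1 peak stops before the gene in both.

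Foxj1, the regulator of motile cilia, also turned direction with the measure. Its peak went from 3.8 kb with 810 reads to 1.8 kb with 664 reads, and its log2 ratio was 0.45 per kb (0.30 to 0.60) and -0.63 in total reads. Foxd2, a developmental factor, had 1078 reads in the sg-Ctrl library and 819 in the KO library in a peak shared with 9130206I24Rik, and its log2 ratio was -0.36 per kb and -0.74 in total reads. By the authors' fold over IgG its log2 ratio was 1.26, and that fold rested on 1 and 0 IgG reads. Foxh1, a partner of SMAD proteins in early embryos, had a peak shared with the neighboring Ppp1r16a that covered the RefSeq start of Foxh1 but not the inner start used in the list, and its log2 ratio was -0.03 per kb.

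The FOXO genes had small ratios. Foxo1 went from 2604 reads to 3046, and its log2 ratio was -0.23 per kb (-0.31 to -0.15). Foxo3 had 2460 and 2431 reads, with a log2 ratio of -0.30 (-0.38 to -0.21). Foxo4 had 1043 and 1238 reads, with a log2 ratio of -0.40. Per kb, all 3 lay above the median of all genes, by 0.10 to 0.27, and all 3 turned above 0 with scaling by shared reads. In total reads, Foxo1 and Foxo4 stayed above the median of -0.32, and Foxo3, at -0.36, lay below it. By the authors' fold over IgG, Foxo3 stayed above the median of -0.48. Foxo1, at -0.59, and Foxo4, at -0.49, lay below it.

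Foxm1 and Foxp1, both on chromosome 6, lay below the median of all genes. The reads of Foxm1 went from 4759 in sg-Ctrl to 4137 in KO in a peak shared with Rhno1 and, in KO, Tulp3, and its log2 ratio was -0.76 per kb (-0.82 to -0.70) and -0.55 in total reads. Foxp1 held 4572 and 3970 reads, with ratios of -0.71 per kb (-0.77 to -0.65) and -0.55 in total reads. Its peak lay at a start inside the longer RefSeq gene. The median over all genes of chromosome 6 was -0.59 per kb. Foxp4 held 1456 and 1896 reads, and its log2 ratio of -0.04 per kb stood above that of Foxp1.

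Foxj3, a widely expressed factor on chromosome 4, went from 1945 reads over 4.6 kb in sg-Ctrl to 1110 reads over 3.6 kb in KO, in a peak shared with AA415398. Its log2 ratio was -0.80 per kb and -1.15 in total reads, the only one past 2-fold lower in total reads of the peak, against 7.63% of all genes. None was 2-fold higher in total reads, against 1.78%. The median of chromosome 4 was -0.72 per kb. Foxk1, a regulator of metabolism and autophagy, held 1205 and 1522 reads, and its log2 ratio was 0.07 per kb (-0.04 to 0.18), while the median of its chromosome 5 was -0.72. By the authors' fold its log2 ratio was 1.48, with 14 IgG reads in sg-Ctrl and 5 in KO. Its relative Foxk2 had a log2 ratio of -0.40 per kb, and Foxn2 of -0.53. Of the 21 members, 11 had a wider peak in KO, 9 a narrower one and 1 an equal one, against 63.1% of all genes with a wider one.

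Foxp3, the regulator of regulatory T cells, was the 1 member with H3K4me3 in KO alone, against 1.29% of all genes. Its listed peak of 808 reads at chrX:7573201-7575800 ended 3875 bp before the Foxp3 start and covered the start of Ppp1r3f. In sg-Ctrl the peak at Ppp1r3f held 615 reads at chrX:7572601-7575600 and ended 200 bp short of the KO one, outside the 4 kb window of Foxp3. Both libraries thus had a peak at the Ppp1r3f start, and the KO one reached the edge of the Foxp3 window.

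Most H3K27me3 regions at members lay in Foxp2. Overlapping peaks of both lists were joined into regions, and scaled reads were divided by the length of the region. The log2 ratio of this density, KO over sg-Ctrl, was 0.02 in the median over the 6247 regions with peaks in both lists. Over the 19 regions at members it was -0.53, with 1 region higher in KO. Scaling by shared regions moved these medians to -0.11 and -0.66, and dividing each peak by its own length moved them to -0.14 and -0.34. Of these regions 15 belonged to Foxp2, and without them the median was -0.04 and the covered length went from 154 to 187 kb, while with them it went from 537 to 500 kb. A density at least 2-fold lower was seen in 1 of 19 regions, against 9.56% of all, and at least 2-fold higher in 0, against 12.1%. The 1 region lay in Foxp2, at chr6:15259001-15269000, with a log2 ratio of -1.82 per joined kb but 0.50 per kb of its own peaks, which were 10 kb wide in sg-Ctrl and 2 kb in KO. Its KO peak held 170 reads and, at 0.74-fold, was below IgG, and its sg-Ctrl peak was 1.20-fold over IgG. Covered length was longer in KO in 5 of 19 regions, against 55.3% of all, and shorter in 10, against 29.4%.

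Foxp2, a repressor best known from speech and motor circuits, is 541 kb long and lay under H3K27me3 over most of its length. In sg-Ctrl, 17 peaks covered 397 kb and 73.2% of the gene, and in KO 19 peaks covered 313 kb and 57.5%. Of these KO peaks, 1 had an FDR above 0.05 and was below IgG. Scaled reads per covered kb were 34.2 in sg-Ctrl and 26.5 in KO. Each of the 15 regions with peaks in both lists had a lower density in KO per kb of joined region, but that measure counts stretches without a listed peak as 0 reads. With each peak divided by its own length, 13 regions were lower and 2 higher, and their median log2 ratio was -0.38. In covered length 9 regions were shorter and 2 longer, and 2 further regions were listed in sg-Ctrl alone. Since these regions are one gene, they are not independent. The median over all regions of chromosome 6 was -0.15, against -0.73 for the Foxp2 regions, both per kb of joined region. With each peak divided by its own length the gap was smaller, at -0.38 for the Foxp2 regions against -0.14 over all regions of the genome.

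The comparison is most direct in the 2 Foxp2 peaks with the same limits in both lists. The one at chr6:15176001-15220000 had 1707 unscaled reads in sg-Ctrl and 3247 in the deeper KO library, with 748 IgG reads in both, and its fold over IgG was 2.70 and 1.62. The one at chr6:15319001-15355000 held 1093 and 2515 reads with 566 IgG reads, and its fold was 2.28 and 1.66. Their log2 ratios were -0.73 (-0.82 to -0.65) and -0.46 (-0.56 to -0.35). They were not set against the 832 H3K27me3 peaks at the same position in both lists. Over all H3K27me3 peaks the median fold over IgG was 2.57 in sg-Ctrl and 2.39 in KO. Across the gene, the folds were low, with medians of 1.95 in sg-Ctrl and 1.54 in KO, and at a limit of 2-fold over IgG only 5 regions at members remained in both lists. Among the 338 genes of 300 kb or longer with peaks in both lists, a limit chosen after the values were seen, the median log2 ratio of covered length was 0.23, and 29.6% covered fewer kb in KO. Foxp2 had -0.35, lower than all but 15.1% of them.

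**Figure D5:**
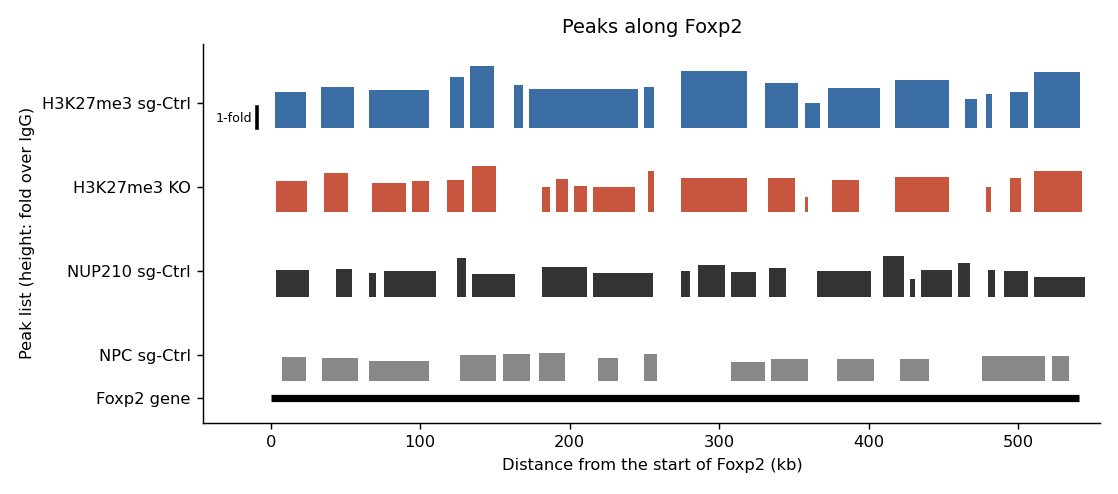
Listed peaks along Foxp2 by distance from its start (kb), with fold over IgG as height (scale bar, 1-fold), from top to bottom H3K27me3 sg-Ctrl, H3K27me3 KO, NUP210 and NPC. H3K27me3 covers 397 kb in 17 peaks in sg-Ctrl and 313 kb in 19 peaks in KO, with median folds of 1.95 and 1.54, and the 20 NUP210 peaks all overlap the sg-Ctrl H3K27me3 peaks.

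Foxd1, a factor of kidney stroma, and Foxn3 were the 2 members of 7 with H3K27me3 in sg-Ctrl alone, against 12.6% of all genes with H3K27me3 in either list and 3.97% of all genes. The Foxd1 peak at chr13:98344001-98370000 was 26 kb wide, covered the whole gene and held 519 reads, 2.25-fold over IgG. The Foxn3 peak at chr12:99437001-99446000 was 9 kb wide with 302 reads, 5.02-fold over IgG, and lay 4.07 to 13.1 kb past the start used in the list, which is inside the longer RefSeq gene. The lists hold no read count where no peak was listed, so the size of the difference in KO is unknown. No member had H3K27me3 in KO alone, against 15.1% of such genes and 4.75% of all genes.

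Foxi3, a factor of ectoderm and ear, had the only region with a higher density per joined kb in KO. Its peak went from 27 kb with 760 reads to 52 kb with 3651 reads, and its upstream edge went from -20.6 to -42.6 kb of the start, where it also met Tex37. The log2 ratio over the joined region was 0.60 (0.49 to 0.72), but it was -0.34 when each peak was divided by its own length, so its direction turned with the measure. Foxr2, a gene on chromosome X usually silent outside testis, lay in a block of 106 and 114 kb shared with Rragb, with 3485 and 10598 reads and a log2 ratio of -0.06 (-0.11 to 0.0001). Foxb1, a brain factor, had 279 and 862 reads with a log2 ratio of -0.03, and Foxi2 441 and 1280 reads with -0.12. At Foxb1 and Foxi2 the peak covered the end of the gene and not its start.

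NUP210 and NPC peaks were listed at few members and had low folds, as did these lists as a whole. NUP210 peaks were listed on 5 of 31, against 33.9% of all genes, and NPC peaks on 5, against 30.8%. Both were listed on 4 of 31, Foxj3, Foxn2 and Foxp2 among them, against 26.4%. Foxp1 had NUP210 alone and Foxd4 NPC alone. The 27 NUP210 peaks were 0.74 to 1.90-fold over IgG and the 21 NPC peaks 0.85 to 1.32-fold, and none reached 2-fold. Their median folds were 1.23 for NUP210 and 1.10 for NPC, near the medians of 1.19 and 1.10 over all peaks of these lists. At an FDR of at most 0.05, NUP210 peaks were on 5 members, against 27.1% of all genes, and NPC peaks on 3, against 20.1%.

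Foxp2 held 20 of the NUP210 peaks, over 367 kb with 9140 ChIP and 7459 IgG reads, and 14 NPC peaks over 308 kb. All 20 NUP210 and all 14 NPC peaks overlapped an H3K27me3 peak of sg-Ctrl, in a gene where H3K27me3 covered 73.2% of the length. Of the NUP210 peaks on Foxp2, 16 had a false discovery rate (FDR) of at most 0.05 and 2 were below IgG, and of the NPC peaks 6 had such an FDR. Foxj3, which carried H3K4me3, had 3 peaks of each kind, with NUP210 at 1.10 to 1.48-fold. Foxn2 had NUP210 peaks of 1.42 and 0.74-fold, and the Foxp1 peak was 1.35-fold.

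The genes that act with FOX proteins were read from textbook lists. Forkhead genes are counted in these lists too. They are Foxo1, Foxo3, Foxo4 and Foxo6 in the FOXO pathway, Foxm1 in the FOXM1 targets and Foxa1 in the FOXA partners. Of 32 FOXO pathway genes, 29 had H3K4me3 in both lists, with a median log2 ratio of -0.53 per kb. The 3 at least 2-fold lower in KO were Irs2, an insulin receptor adaptor, at -1.17, Crebbp, an acetyltransferase, at -1.17, and Cdkn1b, the cell cycle inhibitor p27, at -1.05. Of 18 FOXM1 targets, all 18 had a peak in both lists, with a median of -0.53. The 3 at least 2-fold lower were Ccnb2, a mitotic cyclin, at -1.25, Kif20a, a kinesin of cell division, at -1.01, and Cdc25b, a mitotic phosphatase, with 708 and 353 scaled reads per kb. In total reads of the peak, Irs2 was at -1.17, Kif20a at -1.01 and Cdkn1b at -0.88. Crebbp was at -0.61, Ccnb2 at -0.30 and Cdc25b at -0.002. No gene of these lists was 2-fold higher. Relative to all genes the medians were -0.026 and -0.029 and no gene was past 2-fold, and the background of 2-fold lower genes was 9.66%.

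The FOXA partners of luminal mammary cells were read in the same way. Of 14 genes, 8 had H3K4me3 in both lists, against a background of 67.1% of all genes in sg-Ctrl, with a median of -0.36. Esr1, the estrogen receptor gene, went from 4873 to 3802 reads with a log2 ratio of -0.50, and Gata3, a luminal regulator, 25256 and 22073 with -0.57. Pgr, Greb1, Tff1, Spdef and Elf5 had no listed H3K4me3 peak, and H3K27me3 was listed in both conditions at Pgr, Greb1, Elf5 and Tfap2c, against 26.8% of all genes in sg-Ctrl and 27.6% in KO. Per kb, Foxa1 had the highest ratio of the 8 and the only one above 0 with the main scaling, but in total reads Tfap2c, with 111 and 204 reads, was at 0.53 and above Foxa1.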

How the data were processed

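The 6 lists of ChIP-seq peaks held 1 library each (H3K4me3 and H3K27me3 in sg-Ctrl and KO cells, NUP210 and NPC in sg-Ctrl cells). The 4 samples of RNA-seq were not used here, and the 3 IgG samples entered through the lists. Per the study's methods, the authors called peaks with SICER (200 bp windows for H3K4me3, 1000 bp for the others). The deposited lists gave raw read counts of ChIP and IgG per peak, the fold ratio over IgG, a p-value and an FDR, and intersected peaks with gene bodies or windows of 4 kb either side of the TSS. The submitters' processing notes name mm9 and mm10, and the coordinates fit mm10 (GRCm38). Trimmomatic, Bowtie2 and Picard are named there without versions.

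The library ratio was recovered as ChIP reads over IgG reads over fold. Scaled reads per kb were compared as log2 ratios with exact conditional binomial 95% intervals, using Python 3.11.15, pandas 2.3.3 and scipy 1.17.1. The ratio of scaled reads and its interval were tested on simulated counts. Those simulations took the library ratio as known and did not cover peak width or the choice of peak. A call was a 2-fold change. Members, lists and alternatives were chosen with earlier results of these data known. Named genes were members past 2-fold, with a peak in 1 list alone, among the 5 highest levels, among the 5 largest changes of H3K27me3 length or clustered within 200 kb, plus Foxa1, Foxc1, Foxq1, Foxm1, Foxo1, Foxo3 and Foxp1, and genes of the lists past 2-fold. The other members, Esr1 and Gata3 were named besides to account for the family and its partners. Protein sequences were not analysed here, and the values of 1 member and 1 partner gene are not reported here.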

Additional observations from a re-analysis of the deposited data

How the results depend on the processing

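Among members, Foxf1 went from a log2 ratio of 0.58 per kb to -0.84 in total reads, and Foxd2 from -0.36 to 1.26 by the authors' fold. With scaling by the reads at genes with peaks in both lists, the members' median H3K4me3 log2 ratio was 0.14 and the count at least 2-fold lower was 0. With all TSS peaks summed as total reads it was -0.36, or -0.035 relative to all genes, with 2 members lower. With total reads of the chosen peak, an alternative added after seeing the data, it was -0.36 and -0.038. With the authors' fold over IgG it was -0.45 and 0.029, with 4 members lower and 2 higher. For H3K27me3, the members' median was -0.66 with scaling by shared regions, and -0.34, or -0.20 relative to all regions, with each peak divided by its own length. At a limit of 2-fold over IgG, 5 regions remained, with a median of -0.056, or -0.11 relative to all regions, and a ratio of covered length of 1.19. Without Foxp2, also added after seeing the data, that ratio was 1.21 and the median -0.044, because 15 of the 19 regions were Foxp2. NUP210 and NPC peaks were on 0 members each at 2-fold over IgG, and NPC on 3 at an FDR of at most 0.05. No paired analysis was possible because the replicate numbers in the labels belong to samples not analysed here and each ChIP condition had 1 library. Where no peak was listed, no read count was at hand, and leaving out a replicate was not possible.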
